A study of Mus musculus with 15 samples.

Results

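DNA replication and G1/S genes are the 41 listed genes that load and fire the replication helicase, copy DNA, supply nucleotides, package new chromatin or drive entry into S phase. They were chosen by gene symbol, and for each the probe set with the highest mean over all arrays was used. A probe set was found for 40 of the 41, out of 18194 genes measured. Chaf1a was not matched to a probe set.

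The cells were LSK cells, the lineage-negative, Sca-1-positive, Kit-positive fraction of mouse bone marrow that holds stem cells and multipotent progenitors, from C57BL6 mice. Their genotypes at Apc, the scaffold of the complex that destroys beta-catenin, were wt/wt, 15lox/15lox, 15lox/1638N and 15lox/1572T, where 15lox is a floxed allele and 1638N and 1572T are hypomorphic alleles. Every group, wild type included, was transduced ex vivo with an MSCV retrovirus carrying Cre and GFP, grown in Stemspan with mFlt3L, mTpo and mSCF, cytokines that bring such progenitors into cycle, and sorted for GFP. Expression was measured on 15 arrays, 6 of wt/wt and 3 of each other genotype. The labels do not say whether arrays of a group came from separate animals. By Xist and Y-linked genes each mutant group held arrays of both sexes, so its arrays did not all share an animal. Wild-type arrays 4 to 6 all read as male, so separate animals are not shown there. P-values thus measure the spread between these arrays, part of which may be technical.

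Before a cell copies its DNA, the origin recognition complex, Cdc6 and Cdt1 load the MCM2-7 helicase onto origins in G1. Cyclin E with its kinase and the Dbf4-dependent kinase then start S phase, when Cdc45 and the GINS complex turn the loaded helicase on. E2F transcription factors, held back by the retinoblastoma proteins until G1 cyclin kinases release them, activate many of these genes together. The RNA of these genes in a culture therefore depends in part on how many cells are near or in S phase, a number not measured here. Stem cells at rest in the marrow express these genes at low levels. In a bulk sample, a larger share of cells in S phase and more RNA per such cell cannot be told apart.

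The floxed gene and its pathway were read first. Apc itself is covered by 4 probe sets, of which 3 fell in 15lox/15lox cells against wild type, with log2 fold changes of -3.96, -3.88 and -1.43 (limma, adjusted p = 8.88e-07, 7.98e-06 and 8.59e-04 over all probe sets). The other was higher by 0.77 (adjusted p = 0.0133), and the files do not place any of them relative to the floxed region. In 15lox/1638N cells the first 2 of these probe sets also fell, with log2 fold changes of -1.195 and -1.298 (adjusted p = 0.00296 and 0.0221), and in 15lox/1572T cells their estimates were -0.93 and -0.77 (adjusted p = 0.103 and 0.505). Axin2, a direct target of beta-catenin, rose in 15lox/15lox cells (log2 fold change 4.77, adjusted p = 1.08e-05) and in 15lox/1638N cells (3.86, adjusted p = 1.30e-04), and its estimate in 15lox/1572T cells was 1.20 (adjusted p = 0.294). For 40 of 40 replication genes and for 96.6% of all genes, the mean of the first 3 wild-type arrays and that of the last 3 differed by less than 0.05. Single genes on arrays 1 to 3 took values seen on no other array. Xist, the RNA that coats the inactive X, was at 9.63, 9.88 and 3.62, where it was at 7.499 to 7.978 on the 8 arrays that read as male and at 13.75 to 14.02 on the 4 that read as female. Eif2s3y, on the Y chromosome, was at 8.71, 8.67 and 15.95, where the male range was 10.53 to 11.47 and the female range 3.67 to 4.12. Yet their means on arrays 1 to 3, 7.71 and 11.11, lay near the 7.64 and 11.42 of arrays 4 to 6. Arrays 1 to 3 thus look adjusted gene by gene to the mean of arrays 4 to 6, a step that the sources used here do not record. Wild type below therefore means arrays 4 to 6 unless stated, and a p-value given with all 6 arrays counts controls that may not be independent and may be too small. Of the 6 LSK markers measured, Kit lay between 10.75 and 11.54 on those 3 wild-type and the 9 mutant arrays. Cd34 was at 13.40, 13.33 and 13.30 in wild type. It was at 13.60, 13.49 and 13.55 in 15lox/1638N and at 13.49, 13.47 and 13.61 in 15lox/15lox cells. Both groups lay wholly above wild type, as did 10.2% and 6.13% of all genes. The 15lox/1572T arrays of Cd34, at 13.50, 13.51 and 13.26, overlapped with wild type. Flt3, a receptor of multipotent progenitors whose ligand was in the medium, was at 12.58, 12.84 and 12.74 in wild type and at 12.01, 12.05 and 12.31 in 15lox/1638N cells, without overlap (-0.60 ± 0.15, SE; limma, adjusted p = 0.0509, and 0.00571 with all 6 wild-type arrays). Of all genes, 18.6% lay wholly below wild type in 15lox/1638N cells. The estimates of Flt3 were -0.30 in 15lox/15lox and -0.40 in 15lox/1572T cells (limma, adjusted p = 0.475 and 0.500). Gata2, Meis1 and Procr differed by -0.01, 0.24 and -0.31 in 15lox/1638N cells (adjusted p = 0.971, 0.744 and 0.749).

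Promoters show what these genes share in sequence. RefSeq promoter windows (GRCm38.p6, 250 bases before to 50 bases after the transcription start) were matched for 32 of the 40 genes. They were searched on both strands for the E2F letters TTTCCCGC, TTTCGCGC, TTTGCCGC and TTTGGCGC, whose matches can overlap. Of the 38 windows of these genes 14 held such letters (36.8%), against 744 of all 32851 windows (2.26%). The CCAAT box, CCAAT, was in 60.5% of the windows of these genes and 37.4% of all windows, and the letters TTTGAA, part of the element common in G2/M promoters, were in 13.2% and 17.9%. The windows of Mcm6 and Mcm5 hold the E2F letters more than once, as do those of Mcm3 and Rfc3, which are not shown. The 5 stretches below come from Mcm6 and Mcm5 and from Orc1, Cdc6 and Uhrf1, whose values are described further on. Each is 100 bases long, is written 5′ to 3′ on the strand of its gene, lies upstream of the start, and has the E2F letters, on either strand, in capitals.
Mcm6, chr1:128359716-128359815, minus strand: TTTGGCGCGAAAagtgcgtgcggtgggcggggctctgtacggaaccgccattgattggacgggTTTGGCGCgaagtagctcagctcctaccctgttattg
Mcm5, chr8:75109356-75109455, plus strand: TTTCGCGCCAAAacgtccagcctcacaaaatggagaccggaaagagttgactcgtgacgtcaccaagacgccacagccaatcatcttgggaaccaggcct
Orc1, chr4:108579354-108579453, plus strand: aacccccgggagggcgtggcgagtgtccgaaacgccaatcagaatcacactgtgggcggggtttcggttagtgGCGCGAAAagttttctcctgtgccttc
Cdc6, chr11:98908013-98908112, plus strand: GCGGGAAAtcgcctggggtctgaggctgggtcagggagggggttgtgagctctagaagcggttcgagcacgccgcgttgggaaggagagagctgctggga
Uhrf1, chr17:56304128-56304227, plus strand: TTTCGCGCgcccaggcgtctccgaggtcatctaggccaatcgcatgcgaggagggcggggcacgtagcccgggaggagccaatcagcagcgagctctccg
In Mcm6 and Mcm5 the first matches overlap, on opposite strands, and together span 12 bases. The windows of Ccne2, Gins1, Gins2, Gins4, Mcm4, Pole, Prim2 and Rfc2 were not matched.

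All 40 genes were bright in every culture. Their log2 levels ran from 7.84 to 14.31, above the array medians of 6.65 to 6.84. The mean over the 40 genes was 11.78, 11.99 and 11.70 on the wild-type arrays, 11.80, 12.04 and 11.72 on the 15lox/15lox arrays, 11.63, 11.87 and 12.01 on the 15lox/1572T arrays, and 12.12, 12.09 and 11.89 on the 15lox/1638N arrays. Arrays 1 and 2 of 15lox/1638N lay above every array of the other groups, and array 3 lay inside their range. The group means were 11.82 ± 0.15 for wild type, 11.86 ± 0.17 for 15lox/15lox, 11.84 ± 0.19 for 15lox/1572T and 12.03 ± 0.12 for 15lox/1638N (SD, n = 3 each). The mean of 15lox/1638N was thus 0.21 above wild type, or 1.16-fold, where the pooled SD within a group was 0.16, and the means of the other genotypes were 0.03 and 0.01 above it. No test was made on this mean, since its genes were chosen together.

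**Figure D1:**
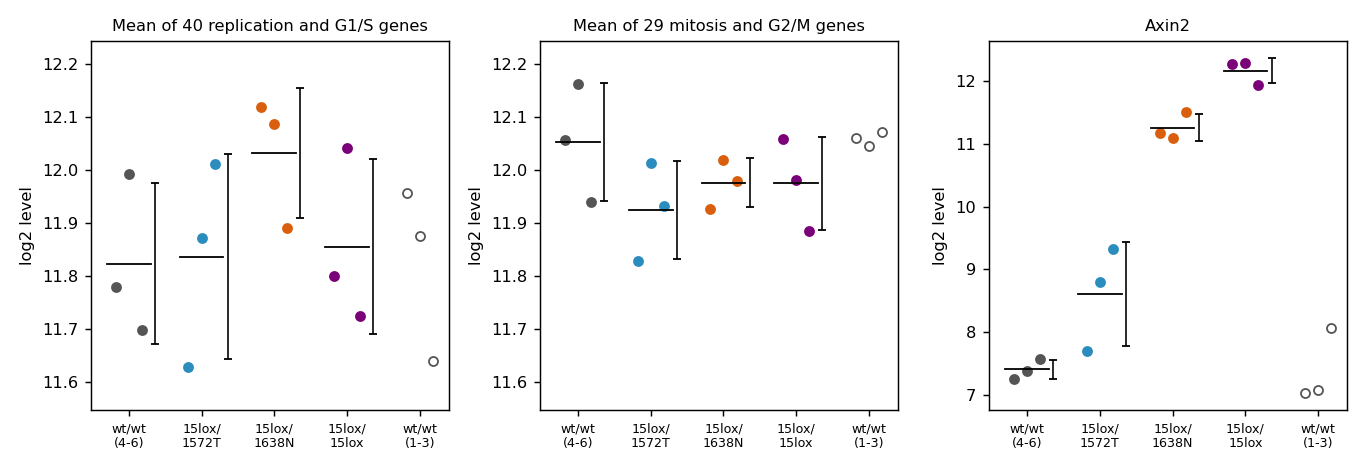
Log2 level on each array, by Apc genotype: the mean over the 40 replication and G1/S genes (left), the mean over 29 mitosis and G2/M genes (middle) and Axin2 (right); each filled point is 1 array, horizontal lines are means of 3 arrays, bars are ± 1 SD, and open points are wild-type arrays 1 to 3, which were not in the group compared. Replication genes were highest on 15lox/1638N arrays 1 and 2 (12.12 and 12.09), with array 3 (11.89) inside the range of the other groups. Axin2 was highest in 15lox/15lox cells.

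No replication gene passed the test in any of the 6 comparisons among the 4 genotypes. The call was an adjusted p under 0.05 (limma, Benjamini-Hochberg over all 18194 genes, 8 residual degrees of freedom before moderation). Against wild type, 0 of 40 were called in 15lox/15lox, 15lox/1638N and 15lox/1572T cells, where 2.55%, 3.47% and 0.110% of all genes were. At an unadjusted p under 0.05, the counts were 1 lower in 15lox/15lox, 7 higher and 1 lower in 15lox/1638N, and 1 higher in 15lox/1572T cells. For all genes, the shares at that p were 4.35% higher and 7.77% lower, 6.19% higher and 13.6% lower, and 2.06% higher and 5.86% lower, in the same order. With all 6 wild-type arrays as control the counts called were 1 (Rfc2), 4 (Rfc2, Ccne2, E2f1 and Rrm2) and 0 of 40, where 6.59%, 14.1% and 1.08% of all genes were.

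The estimates of the whole set still lay to one side in 15lox/1638N cells. There the median log2 fold change was 0.21 for the 40 genes and -0.03 for all genes, and 33 of 40 estimates were above 0, as were 42.7% of all estimates. In 15lox/15lox cells the median was 0.04, with 30 of 40 above 0, beside -0.05 and 37.3% for all genes. In 15lox/1572T cells it was 0.03, with 23 of 40 above 0, beside -0.03 and 42.8%. The comparisons share the 3 wild-type arrays, so their estimates are not independent of each other.

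**Figure D2:**
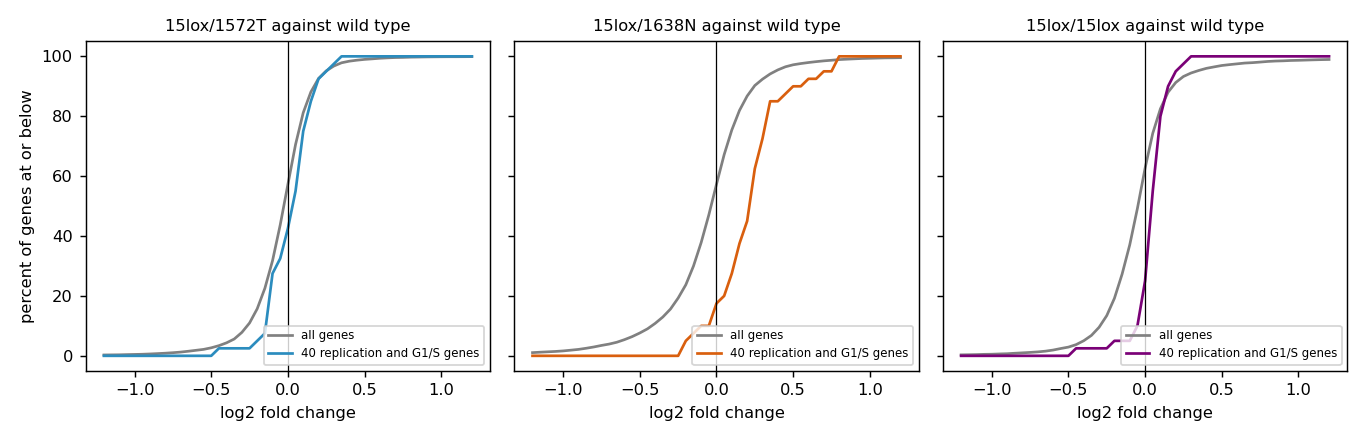
Percent of genes with a log2 fold change at or below the value on the horizontal axis, for the 40 replication and G1/S genes (coloured) and all genes (grey), in each genotype against wild-type arrays 4 to 6. In 15lox/1638N cells 17.5% of the replication genes lie at or below 0 against 57.3% of all genes; in 15lox/15lox cells these shares are 25% and 62.7%.

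The width of the intervals says what size of change these arrays could show. The median standard error of a replication gene was 0.145. The 95% interval lay within 1.5-fold of no change for 36 of 40 genes in 15lox/15lox cells (75.3% of all genes), for 34 of 40 in 15lox/1572T cells (78.4%) and for 22 of 40 in 15lox/1638N cells (69.7%). For the others the interval reached past 1.5-fold in at least 1 direction.

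**Figure D3:**
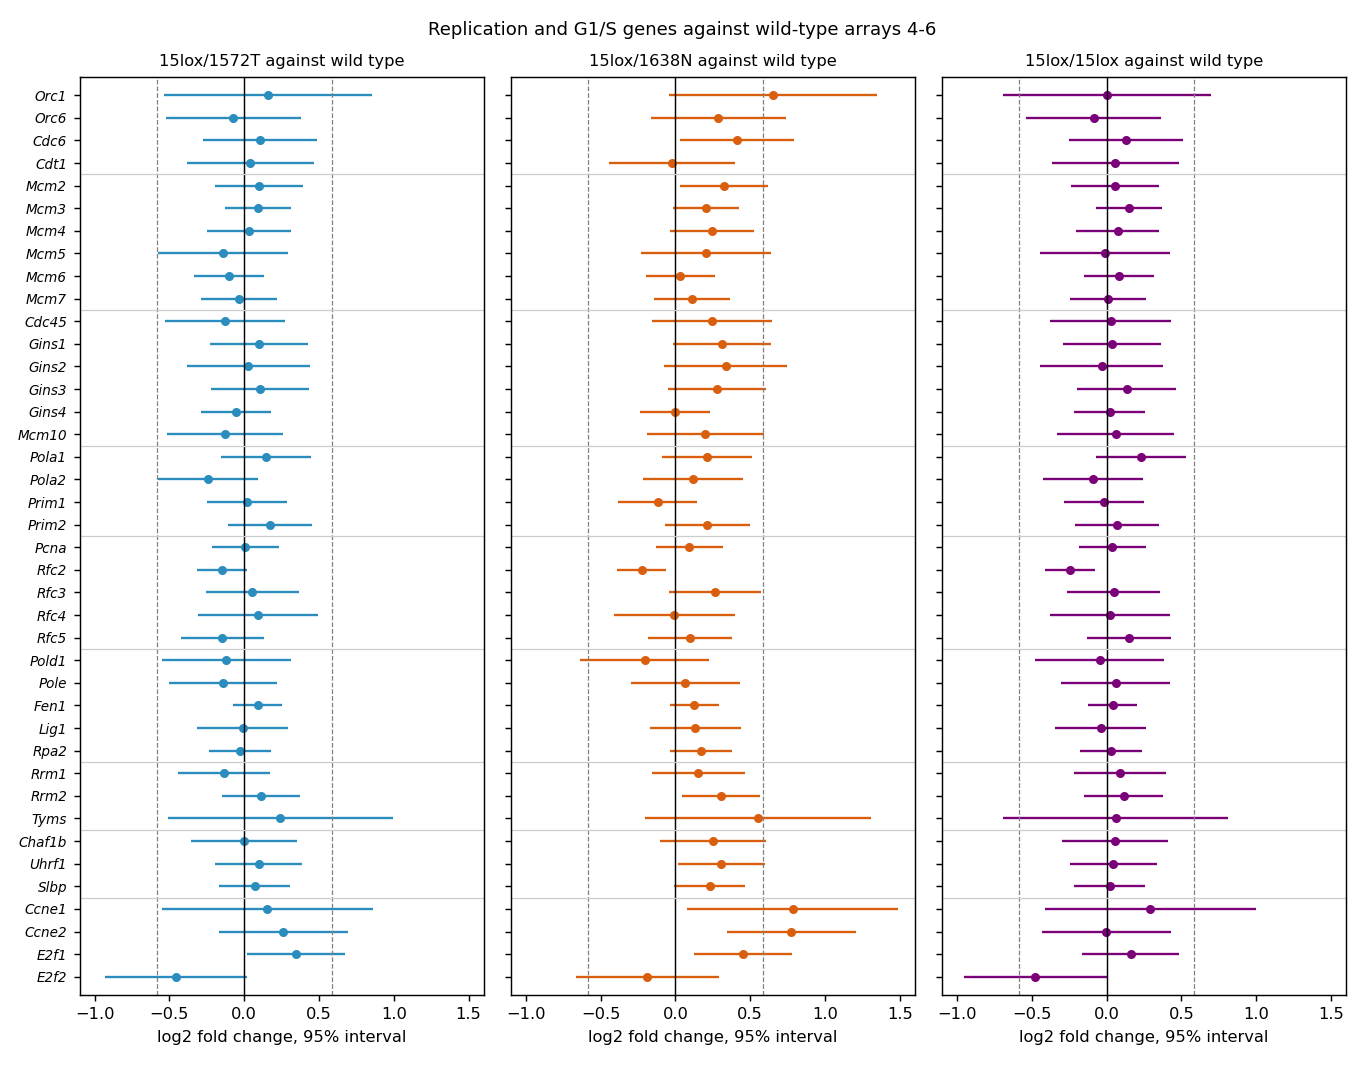
Log2 fold change of each of the 40 genes against wild-type arrays 4 to 6 (point) with its 95% interval from limma (bar), in order of role from origin loading (top) to G1/S regulators (bottom); grey horizontal lines separate roles and dashed vertical lines mark 1.5-fold. In 15lox/1638N cells most points lie right of 0, with Ccne1 and Ccne2 farthest at 0.78, and Rfc2 lies left of 0 in each panel.

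The regulators of S phase entry gave the largest estimates. Ccne2, which encodes cyclin E2, an activator of Cdk2 at the G1/S border, was at 9.26, 9.34 and 8.98 in wild type, 9.23, 9.36 and 8.99 in 15lox/15lox, 9.32, 9.36 and 9.69 in 15lox/1572T, and 10.29, 10.13 and 9.49 in 15lox/1638N cells. Every 15lox/1638N array was above every wild-type and every 15lox/15lox array, and its array 3, at 9.49, lay inside the range of 15lox/1572T and below wild-type array 2, at 9.62. The log2 fold change over wild type was 0.78 ± 0.20 (SE) in 15lox/1638N cells (limma, adjusted p = 0.0555; interval 0.34 to 1.21), -0.0013 in 15lox/15lox cells (adjusted p = 1) and 0.26 in 15lox/1572T cells (adjusted p = 0.826). Without 15lox/1638N array 3 the first of these was 1.02 (adjusted p = 0.00934), and with all 6 wild-type arrays 0.75 (adjusted p = 0.0213); over 24 other settings its adjusted p ran from 0.00459 to 0.205.

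Ccne1, which encodes cyclin E1, the partner gene of Ccne2 with the same kinase, was at 9.77, 10.56 and 9.78 in wild type, 10.14, 10.79 and 10.05 in 15lox/15lox, 9.68, 10.16 and 10.73 in 15lox/1572T, and 11.13, 11.03 and 10.30 in 15lox/1638N cells. Its 15lox/1638N array 3 lay below the highest wild-type array, so the groups overlapped. The difference was 0.78 ± 0.32 (SE; adjusted p = 0.203; interval 0.08 to 1.49), and 0.29 and 0.16 in the other genotypes (adjusted p = 0.810 and 0.962). Its unused probe set gave 0.98 in 15lox/1638N cells.

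E2f1, the activating E2F factor that drives many of these promoters, was at 10.79, 10.93 and 10.45 in wild type, 10.85, 10.99 and 10.81 in 15lox/15lox, 10.84, 11.07 and 11.30 in 15lox/1572T, and 11.35, 11.15 and 11.02 in 15lox/1638N cells. Every 15lox/1638N array was above every wild-type array. The difference was 0.45 ± 0.15 (SE; adjusted p = 0.124), beside 0.35 in 15lox/1572T (adjusted p = 0.592) and 0.16 in 15lox/15lox cells (adjusted p = 0.765). Its dimmer probe sets gave 0.14 and -0.14 in 15lox/1638N cells.

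E2f2, a related activating E2F, had estimates below 0. It was at 9.60, 9.71 and 9.60 in wild type, 8.99, 9.54 and 8.95 in 15lox/15lox, 8.80, 9.50 and 9.25 in 15lox/1572T, and 9.82, 9.42 and 9.10 in 15lox/1638N cells. All 15lox/15lox and all 15lox/1572T arrays lay below all wild-type arrays 4 to 6, and the 15lox/1638N arrays lay on both sides. The differences were -0.48 ± 0.22 (SE; adjusted p = 0.414) and -0.46 ± 0.22 (adjusted p = 0.658) for these genotypes and -0.19 ± 0.22 (adjusted p = 0.686) for 15lox/1638N. A second probe set of E2f2 gave -0.46, -0.54 and -0.44 in the same order, so the estimates were below 0 on both. On that probe set the adjusted p was 0.149, 0.331 and 0.127 over all probe sets, and 0.0290, 0.0467 and 0.0261 with all 6 wild-type arrays, where the probe set used gave 0.190, 0.298 and 0.577. On wild-type arrays 1 to 3 the level was 9.80, 9.73 and 9.32, and the last of these lies inside the range of the mutants.

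**Figure D4:**
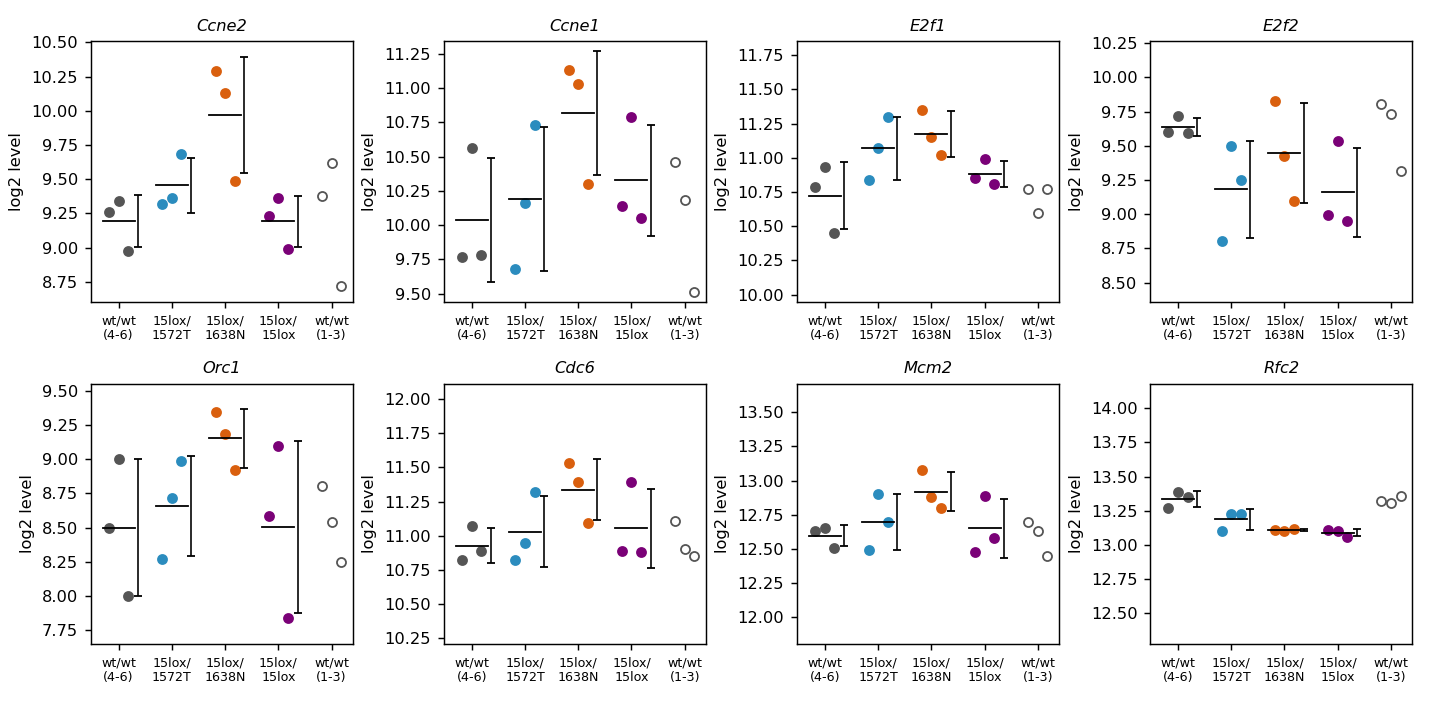
Log2 level of 8 replication and G1/S genes on each array, by Apc genotype; filled points are single arrays, horizontal lines are means of 3 arrays, bars are ± 1 SD, open points are wild-type arrays 1 to 3, and each panel spans the same number of log2 units. Ccne2, E2f1, Cdc6 and Mcm2 show 3 of 3 15lox/1638N arrays above wild-type arrays 4 to 6, and Rfc2 shows all 9 mutant arrays below them.

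Genes that load the helicase also had estimates mostly above 0 in 15lox/1638N cells. Of the 4 measured, 3 were above 0, with a median of 0.35, and none was called. Orc1, the ATPase subunit of the origin recognition complex, was at 8.496, 9.002 and 8.004 in wild type and at 9.35, 9.19 and 8.92 in 15lox/1638N cells. Array 3 of the latter was below the highest of the former, and the difference of 0.65 carried an SE of 0.32 (adjusted p = 0.287). Cdc6, which brings the helicase to the origin, was at 10.82, 11.07 and 10.89 in wild type and at 11.53, 11.39 and 11.09 in 15lox/1638N cells, with no overlap (0.41 ± 0.17, SE; adjusted p = 0.217), though wild-type array 1, at 11.11, lay above the last of these. Its 15lox/15lox levels of 10.89, 11.39 and 10.88 and its 15lox/1572T levels of 10.82, 10.95 and 11.32 each held 1 array inside the 15lox/1638N range. Cdt1, the loading factor that geminin blocks, differed by -0.02 in 15lox/1638N, 0.06 in 15lox/15lox and 0.04 in 15lox/1572T cells, with adjusted p of 0.965, 0.959 and 0.989.

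The MCM2-7 helicase, the motor that unwinds DNA at the fork, was above 0 for 6 of 6 subunits in 15lox/1638N cells, with a median of 0.21 and a range of 0.03 to 0.32. In 15lox/15lox cells 5 of 6 were above 0 (median 0.06), and in 15lox/1572T cells 3 of 6 (median -0.0017). Mcm2 was at 12.63, 12.65 and 12.51 in wild type, 12.48, 12.89 and 12.58 in 15lox/15lox, 12.49, 12.90 and 12.70 in 15lox/1572T, and 13.08, 12.88 and 12.80 in 15lox/1638N cells. The 15lox/1638N arrays were all above the wild-type arrays (0.32 ± 0.13, SE; adjusted p = 0.207). Mcm5 differed by 0.20 ± 0.20 (adjusted p = 0.621), and its wild-type arrays, at 12.07, 12.53 and 11.82, spanned more than that difference. Of the 6 genes that activate the helicase (Cdc45, the 4 GINS subunits and Mcm10), 5 were above 0 in 15lox/1638N cells, with a median of 0.26, and Gins4 was at -0.0033.

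The machinery that copies the strands gave smaller estimates. Primase and polymerase alpha, which lay down primers, had a median of 0.16 in 15lox/1638N cells over 4 genes. Pola1, the catalytic subunit of polymerase alpha, was at 10.52, 10.66 and 10.58 in wild type and at 10.73, 11 and 10.71 in 15lox/15lox cells, the only replication gene with every 15lox/15lox array above every wild-type array (0.23 ± 0.14, SE; adjusted p = 0.578; 6.13% of all genes were so placed). Its 15lox/1572T arrays, at 10.68, 10.70 and 10.82, also lay above wild type (0.15, adjusted p = 0.869; 4.02% of all genes). Pola1 is X-linked, and by Xist and Y-linked genes 15lox/15lox arrays 2 and 3, 15lox/1572T array 1 and 15lox/1638N array 3 read as female while wild-type arrays 4 to 6 read as male. With sex as a covariate its difference between 15lox/15lox and wild type was 0.33 ± 0.15 (SE; limma, adjusted p = 0.550).

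The sliding clamp and its loader had a median of 0.09 in 15lox/1638N cells over 5 genes. Pcna, the clamp that holds polymerases on DNA, differed by 0.09, 0.04 and 0.01 in 15lox/1638N, 15lox/15lox and 15lox/1572T cells (adjusted p = 0.667, 0.949 and 0.996). Rfc2, a small subunit of the clamp loader, had estimates below 0 in each mutant on the probe set used. Its levels were 13.27, 13.39 and 13.35 in wild type, 13.11, 13.10 and 13.06 in 15lox/15lox, 13.10, 13.23 and 13.23 in 15lox/1572T, and 13.11, 13.10 and 13.12 in 15lox/1638N cells. All 9 mutant arrays lay below all wild-type arrays, and the 15lox/1638N arrays differed from each other by no more than 0.02. The differences were -0.25 ± 0.08 (SE; adjusted p = 0.164), -0.15 ± 0.08 (adjusted p = 0.692) and -0.23 ± 0.08 (adjusted p = 0.129) in that order. With all 6 wild-type arrays the first was -0.24 (adjusted p = 0.0123) and the third -0.22 (adjusted p = 0.0136). The unused probe sets of Rfc2 gave 0.05 and -0.07 in 15lox/15lox and -0.04 and -0.15 in 15lox/1638N cells, smaller than the one used. In 15lox/1572T cells they gave 0.20 and 0, and the mean of all its probe sets there was 0.02 above wild type, so the direction in that genotype rests on the probe set used.

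Among the replicative polymerases and the genes that finish the lagging strand, 4 of 5 were above 0 in 15lox/1638N cells (median 0.13). Pole, the leading-strand polymerase, differed by 0.07 (adjusted p = 0.869). Rpa2, of the complex that coats single-stranded DNA, differed by 0.17 (adjusted p = 0.353). Pold1, the lagging-strand polymerase, was the exception at -0.21 (adjusted p = 0.610).

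Nucleotide supply was above 0 for 3 of 3 genes in 15lox/1638N cells (median 0.30). Rrm2, the subunit of ribonucleotide reductase that limits deoxynucleotide production, was at 13.45, 13.42 and 13.21 in wild type and at 13.89, 13.62 and 13.48 in 15lox/1638N cells, without overlap (0.30 ± 0.12, SE; adjusted p = 0.185). Tyms, thymidylate synthase, was at 8.14, 8.74 and 8.64 in wild type and at 9.17, 9.25 and 8.76 in 15lox/1638N cells (0.55 ± 0.34, SE; adjusted p = 0.410). One 15lox/15lox array, at 9.22, and one 15lox/1572T array, at 9.54, also lay above the wild-type arrays of Tyms.

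Of the 3 measured chromatin genes, 3 were above 0 in 15lox/1638N cells (median 0.25). Uhrf1, which carries DNA methylation across the fork, was at 13.34, 13.25 and 13.29 in wild type, 13.39, 13.57 and 13.05 in 15lox/15lox, 13.33, 13.34 and 13.50 in 15lox/1572T, and 13.73, 13.67 and 13.40 in 15lox/1638N cells. The last were all above wild type (0.31 ± 0.13, SE; adjusted p = 0.227). Slbp, which binds the stem-loop of histone messages, differed by 0.23 (adjusted p = 0.266), with 15lox/1638N array 3, at 12.82, below wild-type array 4, at 12.90.

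Counted by array, 11 of the 40 genes had every 15lox/1638N array above every wild-type array (27.5%, beside 10.2% of all genes): Cdc6, Mcm2, Mcm3, Mcm4, Gins1, Fen1, Rrm2, Tyms, Uhrf1, Ccne2 and E2f1. Rfc2 alone lay wholly below (18.6% of all genes). In 15lox/15lox cells Pola1 lay wholly above and Rfc2 and E2f2 wholly below (12.1% of all genes), and the same genes did so in 15lox/1572T cells (9.91% below). Once wild-type arrays 1 to 3 were counted too, 7 of the 11 still lay wholly above in 15lox/1638N cells (7.94% of all genes), as Ccne2, Cdc6, Tyms and Fen1 no longer did, and Rfc2 still lay wholly below (15.2%). In 15lox/15lox and 15lox/1572T cells 0 genes then lay wholly above (4.69% and 2.64% of all genes) and Rfc2 alone wholly below (9.49% and 7.19%). The genes with E2F letters in their promoter window had a median log2 fold change of 0.21 in 15lox/1638N cells, with 11 of 14 above 0. Those without them had 0.22, with 16 of 18 above 0, so the medians differed by about 0.01. The split rests on exact letters in a short window, so genes without them may still hold E2F sites. The part of E2F in these estimates was not tested.

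Within each group the genes were high or low together from array to array. Wild-type array 5 was the highest of its 3 arrays for 36 of 40 genes, 15lox/15lox array 2 for 33 and 15lox/1572T array 3 for 30. In 15lox/1638N cells array 1 was highest for 21 and array 2 for 15, and array 3 was the lowest for 36. Array 1 was the lowest 15lox/1572T array for 37. These low arrays, 15lox/1638N array 3 and 15lox/1572T array 1, read as female, where the rest of their groups and wild-type arrays 4 to 6 read as male. Of the 15lox/15lox arrays that read as female, array 2 was the highest for 33 genes and array 3 the lowest for 24. The part of sex in these differences between arrays was not tested. The spread of the mean within a group was 0.29 in wild type, 0.32 in 15lox/15lox, 0.38 in 15lox/1572T and 0.23 in 15lox/1638N cells from the lowest to the highest array, larger than the 0.21 between 15lox/1638N and wild type. Counted against the wild-type mean gene by gene, 35, 34 and 31 of 40 genes were above it on the 15lox/1638N arrays, 23, 35 and 17 on the 15lox/15lox arrays, 7, 25 and 33 on the 15lox/1572T arrays, and 15, 39 and 6 on the wild-type arrays themselves.

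**Figure D5:**
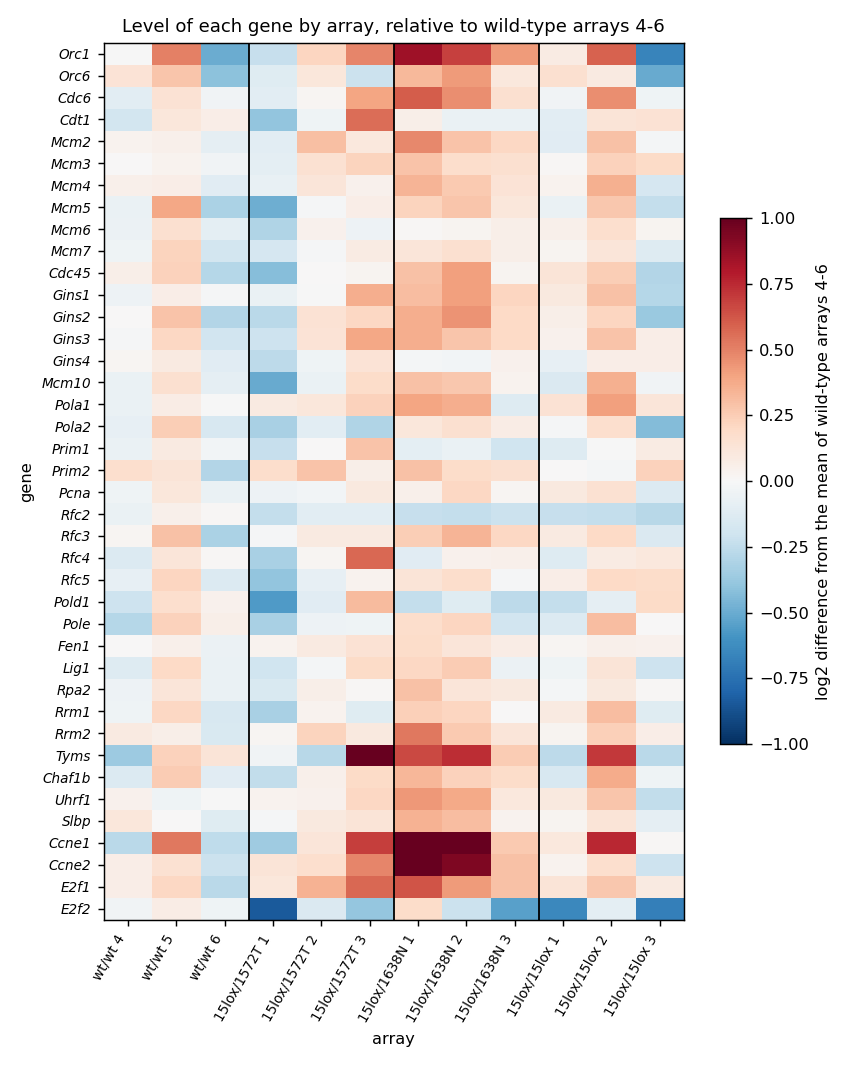
Difference of each of the 40 genes (rows, in order of role) from its mean over wild-type arrays 4 to 6, on each of the 12 arrays compared (columns); red is higher, blue is lower, and colours stop at a log2 difference of 1 in either direction. Columns differ as whole columns: wild-type array 5 is above its group mean for 39 genes and 15lox/1572T array 1 for 7, and the 3 15lox/1638N arrays for 35, 34 and 31.

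Direct comparison of the mutants called no replication gene either. Between 15lox/15lox and 15lox/1638N cells 0 of 40 genes were called (0.418% of all genes), 32 estimates were below 0 (51.7% of all), and the median was -0.17 beside -0.01 for all genes. At an unadjusted p under 0.05 the count was 1 lower (Ccne2), where 6.84% of all genes were higher and 3.77% lower. The difference for Ccne2 was -0.78 ± 0.20 (SE; adjusted p = 0.180), with no overlap between the groups. Rfc3, Fen1 and E2f1 also lay wholly lower (7.67% of all genes), with adjusted p of 0.594, 0.682 and 0.505. By group mean, Axin2 was highest in 15lox/15lox cells and the replication genes in 15lox/1638N cells. The replication means overlapped by array, as 15lox/15lox array 2, at 12.04, lay above 15lox/1638N array 3, at 11.89. The order of these 2 genotypes in the replication genes is thus not settled, and its relation to Axin2 was not tested.

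Between 15lox/1638N and 15lox/1572T cells 0 of 40 were called (0.352% of all genes), and 35 estimates were above 0 (47.5% of all), with a median of 0.21. Ccne2 (0.51 ± 0.20, SE; adjusted p = 0.478) and Pola2, the accessory subunit of polymerase alpha (0.36 ± 0.15; adjusted p = 0.507), had the lowest p, and were the 2 with an unadjusted p under 0.05 (3.74% of all genes higher and 5.50% lower). Mcm4, Mcm5, Pola2, Rfc3 and Rpa2 lay wholly higher in 15lox/1638N cells (6.96% of all genes). Between 15lox/15lox and 15lox/1572T cells 0 of 40 were called (1.63% of all genes), the median was 0.02, and Rfc5, a further clamp loader subunit, had the lowest p (0.30 ± 0.13, SE; adjusted p = 0.490) and was the only gene to lie wholly higher (6.11%). It was also the 1 gene with an unadjusted p under 0.05 (5.45% of all genes higher and 3.92% lower).

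Genes outside the list but in the same process also had estimates mostly above 0 in 15lox/1638N cells. There 37 of 44 other replication genes measured were above 0 (42.7% of all genes), and the median was 0.19 (-0.03 for all genes). Of these 44, 1 was called (3.47% of all genes). That gene was Dna2, the nuclease and helicase that trims lagging-strand flaps. It was at 10.36, 10.61 and 10.06 in wild type and at 11.25, 11.13 and 10.87 in 15lox/1638N cells, and it rose by 0.74 ± 0.18 (SE; adjusted p = 0.0434). The call was lost when any 1 of 9 of the 12 arrays was left out (adjusted p = 0.0513 to 0.163), wild-type arrays 4, 5 and 6 and 15lox/1638N arrays 1 and 2 among them. In 15lox/15lox and 15lox/1572T cells 0 of 44 were called (2.55% and 0.110% of all genes). The medians were 0.01 and 0.02, beside -0.05 and -0.03 for all genes.

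Of 15 E2F and Rb family genes outside the list, 0 were called in each mutant. E2f8, an atypical E2F that represses the activators' targets, had the lowest p in 15lox/1638N cells (0.48 ± 0.12, SE; adjusted p = 0.0586). E2f7, its close relative, had the lowest in 15lox/15lox cells (0.64 ± 0.21; adjusted p = 0.195). Of 12 G1 cyclins, kinases and their regulators 0 were called, with Skp2, the ubiquitin ligase subunit that removes p27, at 0.69 ± 0.23 in 15lox/1638N cells (adjusted p = 0.131). Of 7 CDK inhibitors 0 were called, with medians of -0.28 in 15lox/1638N, -0.11 in 15lox/15lox and -0.10 in 15lox/1572T cells. In each mutant 2 of 7 estimates were above 0, beside 42.7%, 37.3% and 42.8% of all genes in that order. Cdkn2a and Cdkn2b, at most 5.15 and 5.51 on any array, lay below the array medians of 6.65 to 6.84.

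Genes of the next stage of the cycle had medians just below 0. Of 29 mitosis and G2/M genes 0 were called. Their medians were -0.09, -0.09 and -0.08 in 15lox/1638N, 15lox/15lox and 15lox/1572T cells, with 21, 20 and 28 of 29 below 0. For all genes the medians were -0.03, -0.05 and -0.03, and 57.2%, 62.5% and 57.2% lay below 0, in the same order. Kif23, a kinesin of the cleavage furrow, had the lowest p in 15lox/1638N cells (-0.58 ± 0.15, SE; adjusted p = 0.0582). The replication mean minus the G2/M mean, a difference taken within each array, was -0.28, -0.17 and -0.24 in wild type, -0.26, 0.06 and -0.16 in 15lox/15lox, -0.20, -0.14 and 0.08 in 15lox/1572T, and 0.19, 0.07 and -0.09 in 15lox/1638N cells. All 15lox/1638N arrays were above all wild-type arrays on it, while each of the other mutants overlapped with wild type.

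Markers of other cell types moved in the same cultures. Against wild type, 3 of 6 monocyte markers (Cd14, Ccr2 and F13a1) were called higher in 15lox/1638N and in 15lox/15lox cells. In 15lox/1572T cells 1 of 6 (Cd14) was. The other 3 monocyte markers, Csf1r, Adgre1 and Fcgr1, had estimates below 0 in 15lox/1638N and 15lox/15lox cells. Csf1r was at 11.62, 12.09 and 12.55 in wild type and at 11.21, 10.48 and 11.94 in 15lox/1638N cells. Among 8 neutrophil progenitor markers 2 (Prtn3 and Ms4a3) were called higher in 15lox/1638N cells. For all genes, 1.07%, 1.80% and 0.0275% were called higher and 2.40%, 0.753% and 0.0824% lower in 15lox/1638N, 15lox/15lox and 15lox/1572T cells. Of the dendritic cell and MHC class II markers 5 of 8 were called lower in 15lox/1638N, 2 of 8 in 15lox/15lox and 0 of 8 in 15lox/1572T cells. Yet 8 of 8 estimates were below 0 in each (57.2%, 62.5% and 57.2% of all genes), with medians of -1.68, -1.36 and -1.32 in that order. Of 6 B cell markers 2, 1 and 0 were called lower, and of 7 T cell markers 2, 2 and 1, in that order. No marker of the LSK (6 measured), erythroid (5), megakaryocyte (5) or mast cell (6) lists was called. The log2 of the summed neutrophil progenitor levels ran from 15.69 to 15.73 in wild type, 15.87 to 15.94 in 15lox/1638N, 15.70 to 15.91 in 15lox/15lox and 15.82 to 16.02 in 15lox/1572T cells. For monocyte markers the ranges were 13.07 to 13.47, 13.46 to 13.98, 13.69 to 14.62 and 13.33 to 13.97, and for dendritic cell and MHC class II markers 13.90 to 14.72, 12.57 to 13.08, 12.93 to 13.81 and 13.20 to 13.66, in the same order. B cell markers ran from 11.82 to 11.96, 10.88 to 11.41, 11.03 to 11.69 and 11.40 to 11.75. T cell markers reached 11.24 in wild type, ran from 10.06 to 10.34 in 15lox/1638N and from 10.15 to 10.43 in 15lox/15lox cells, and reached 10.82 in 15lox/1572T cells. These are log2 array values, on which no marker reads as 0. The part of these cell types in the values of the replication genes was not tested.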

How the data were processed

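Each of the 15 arrays (Affymetrix 3′ expression arrays, by their probe set names) gave 1 value for 45101 probe sets. The values deposited by the authors are log2 expression, as their range shows, and the submitters' processing notes name RMA and mm9 without saying how either was used. Per the labels' protocols, RNA of sorted GFP-positive cells was amplified (Nugen Ovation V2) and labelled with biotin. RMA as commonly run sets all arrays to a like distribution, which would hide a change shared by most genes; the array medians here lay between 6.65 and 6.84.

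Probe sets were named from the platform annotation: 34958 carried 1 symbol, 932 several and 9211 were not listed. The probe set with the highest mean over 15 arrays stood for each gene. A linear model of the 4 genotypes on 12 arrays (wild-type arrays 1 to 3 left out) was fitted in R 4.3.3 with limma 3.58.1 (lmFit, eBayes), two-sided, with Benjamini-Hochberg adjustment over 18194 genes and a threshold of 0.05. The fit was tested on data simulated with independent noise for each gene and array. Genes that move together on an array, as described above, were not simulated. Number of arrays limits precision, and there is no count-based depth.

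The members and the lists were chosen with earlier results of these data known. Members named in the text were, in each comparison with wild type, those past the threshold and the 4 of lowest p; between mutants, the 2 of lowest p; and a fixed group of 15 genes. Genes whose groups did not overlap, Orc1, Gins4, Pold1, second probe sets and other settings were added after their values were seen. From each list of other genes those called, or else the 1 of lowest p, were named. Alternatives changed the control arrays, normalization, filter, model options, probe set choice, sex as a covariate, pairing and each array in turn.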

Additional observations from a re-analysis of the deposited data

How the results depend on the processing

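Over 24 alternatives the difference in the mean of the 40 genes between 15lox/1638N and wild type stayed between 0.15 and 0.29, and no such difference in the 6 comparisons moved by more than the SD within groups (0.16). The differences of 15lox/15lox and of 15lox/1572T from wild type, and that between these 2 genotypes, lay on both sides of 0. Counts of called genes moved from 0 as follows. With all 6 wild-type arrays 1 was called in 15lox/15lox against wild type (Rfc2, lower) and 4 in 15lox/1638N against wild type (Rrm2, Ccne2 and E2f1 higher, Rfc2 lower), where 6.59% and 14.1% of all genes were called. For 15lox/1638N against wild type 1 was called (Ccne2) with a mean above 6 as a filter (5.79% of the genes kept), with trended and robust eBayes (4.09% of all genes), and with sex as a covariate (2.90%), and 6 with array weights (Uhrf1, Cdc6, E2f1, Ccne2, Ccne1 and Gins1; 15.8%). Array weights also gave 1 between 15lox/15lox and 15lox/1638N (Ccne2; 0.945%). Leaving out 1 array gave 0 to 1 in these last 2 comparisons, the 1 being Ccne2 without 15lox/1638N array 3 in both (5.28% and 0.929% of all genes), or without 15lox/15lox array 3 in the first (5.19%). Unadjusted p under 0.05, an alternative chosen after seeing the data, gave 1, 8, 1, 1, 1 and 2 in the 6 comparisons, in the order 15lox/15lox, 15lox/1638N and 15lox/1572T against wild type, then 15lox/15lox against 15lox/1638N, 15lox/15lox against 15lox/1572T and 15lox/1638N against 15lox/1572T, beside 12.1%, 19.8%, 7.91%, 10.6%, 9.37% and 9.24% of all genes. Why these counts moved was not tested.

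Same-numbered mutant arrays did not all deviate together (correlations of -0.13 to 0.43). These correlations were not set beside those of differently numbered arrays, so they cannot say whether the numbers pair the arrays. In the fit with the replicate block, wild-type arrays 4 to 6 shared their number with no other array, so the control was arrays 1 to 3. There 0 of the 40 genes were called in each of the 6 comparisons. The difference in the mean between 15lox/1638N and these arrays was 0.21. Arrays 1 to 3 look adjusted to the mean of arrays 4 to 6, and their means over the 40 genes were 11.8236 and 11.8231. This 0.21 is therefore no separate check of the main fit. Of 62 estimates of named genes, 24 changed sign in at least 1 alternative, 60 values in all, none of them called (lowest adjusted p 0.616), and 3 of these values exceeded their own SE. In 15lox/1638N against wild type 2 of 20 did so, Cdt1 and Pole, both small. Precision is limited by the 3 arrays in each group.

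In 15lox/15lox against wild type the changed values for Ccne2 were 0.0037 with quantile normalization again and 0.22 (SE 0.20) with sex as a covariate. For Mcm2 the value was -0.011 with array weights. Mcm5 gave 0.013 with array weights, 0.11 with sex and 0.071 with the mean of all probe sets. With the replicate block, whose control was wild-type arrays 1 to 3, Mcm5 gave 0.0033. For Slbp the changed values were -0.0067 with arrays centred on their medians and -0.029 with array weights. The mean of all probe sets gave -0.13 (SE 0.11) for Slbp, -0.13 for Tyms and -0.0285 for Uhrf1. In 15lox/1638N Cdt1 gave 0.081 with array weights, 0.029 with sex and 0.14 with the mean of all probe sets. In 15lox/1572T array weights gave -0.048 for Cdt1, -0.0049 for Pcna and -0.016 for Slbp. The mean of all probe sets gave 0.047 for Mcm5, 0.017 for Rfc2, -0.059 for Rrm2 and -0.063 for Slbp there, and Pcna was at -0.021 with quantile normalization again and -0.0053 with centring.

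Leaving out 1 array at a time gave these ranges in 15lox/15lox against wild type: Ccne2 -0.11 to 0.10, Cdc6 -0.042 to 0.21, Cdt1 -0.035 to 0.14, Mcm2 -0.067 to 0.14, Mcm5 -0.17 to 0.18, Pcna -0.02 to 0.125, Pole -0.082 to 0.17, Rpa2 -0.005 to 0.09, Slbp -0.042 to 0.078, Tyms -0.27 to 0.22 and Uhrf1 -0.073 to 0.19. In 15lox/1638N they were -0.115 to 0.035 for Cdt1 and -0.075 to 0.20 for Pole. In 15lox/1572T they were -0.11 to 0.42 for Ccne1, -0.042 to 0.21 for Cdc6, -0.22 (SE 0.14, without array 3) to 0.26 for Cdt1, -0.0017 to 0.20 for Mcm2, -0.30 to 0.052 for Mcm5, -0.04 to 0.062 for Pcna, -0.07 to 0.035 for Rpa2 and -0.16 to 0.50 for Tyms.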
